A study of Mus musculus with 8 samples.

Results

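The genes described here are 8 transcripts by which the disease-associated state of microglia is commonly recognised: Trem2, Apoe, Lpl, Fabp5, Spp1, Gpnmb, Cd9 and Lgals3. They were found by Ensembl identifier, through the symbols of GENCODE vM21, among the 52636 gene identifiers of the count table, and all 8 were present and passed the filter on low counts, which left 13847 genes to test. RNA was sequenced from primary microglia of wild-type C57BL/6 mice (the substrain C57BL/6N by the study's methods), given vehicle or lipopolysaccharide (LPS, the endotoxin of Gram-negative bacteria) at 5 µg/ml for 24 h, to ask how LPS acts on microglia, with 4 libraries per group. Cells of both groups had been shaken off mixed glial cultures of neonatal brain and kept in serum with recombinant CSF-1, a growth factor microglia need, so both were already outside their tissue when treated. The titles number the libraries as biological replicates, but no source used here says that they came from separate cultures, so p-values measure the spread between these libraries.

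Trem2 is a surface receptor of microglia that binds lipids and lipoproteins and signals through the adaptor Tyrobp and the kinase Syk. In mouse brains with amyloid or demyelination, microglia that gather at the damage raise the genes named above and lower their homeostatic genes, and the later part of that change needs Trem2. Apoe, Lpl and Fabp5 carry, cleave and bind lipids, whereas Gpnmb, Spp1, Lgals3 and Cd9 encode a lysosomal and surface glycoprotein, a secreted phosphoprotein, a galectin and a tetraspanin.

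LPS lowered 5 of the 8 genes and raised none at an adjusted p under 0.05 in edgeR (quasi-likelihood test, Benjamini-Hochberg over all 13847 genes). At an unadjusted p under 0.05, and with DESeq2, 1 member was higher, Spp1. Lpl fell 50.2-fold, Trem2 40.9-fold, Cd9 4.83-fold, Gpnmb 3.38-fold and Apoe 2.72-fold, and the libraries of the groups did not overlap for these 5. Spp1, Lgals3 and Fabp5 did not pass the test, and their libraries overlapped. Changes were common in these data: 33.8% of all tested genes were called lower, 30.3% were called higher, 9.42% were called lower with a log2 fold change of -2 or less, which held for 3 members, and 31.5% had every LPS library below every vehicle library. The median log2 fold change of the 8 members was -1.60, beside -0.11 over all tested genes. Counts called in each gene list below are to be read beside the 30.3% higher and 33.8% lower of all tested genes.

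The outcome depended in part on how libraries were scaled. The trimmed mean of M-values (TMM), used for the values given here in CPM (counts of a gene per 1000000 scaled counts of its library), set factors of 1.21 to 1.32 for vehicle and 0.70 to 0.83 for LPS libraries. Scaled by library totals alone, the median of all tested genes shifted by -0.68 on the log2 scale, and the division of the calls into higher and lower went from 47.2% and 52.8% to 19.0% and 81.0%. The 5 genes that fell were called lower under each scaling, whereas Lgals3 and Fabp5 were called lower under library totals only and Spp1 changed sign there. In bulk RNA, fewer cells of a type and less RNA per cell cannot be told apart.

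**Figure D1:**
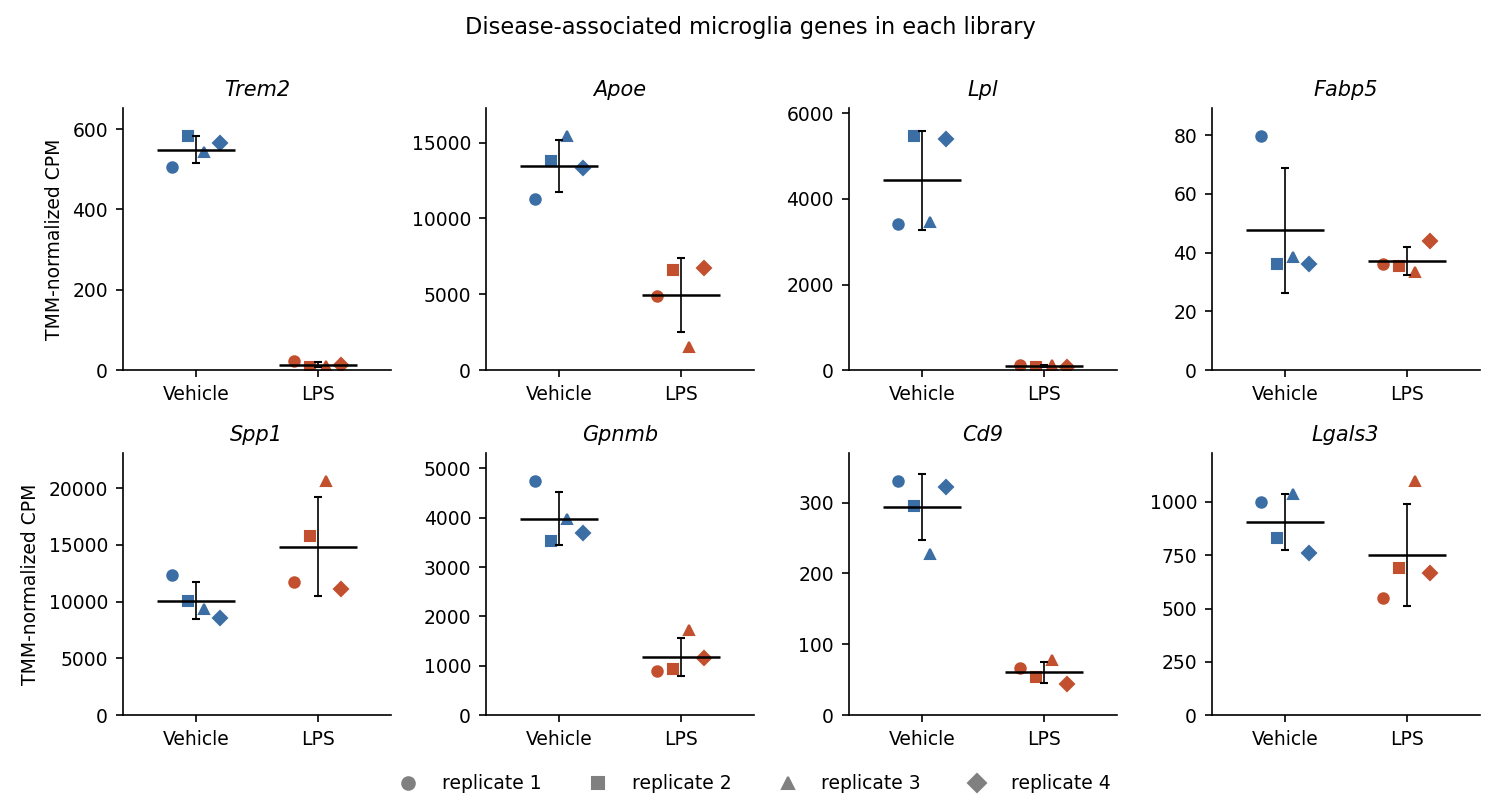
Level of each of the 8 genes in every library, in TMM-normalized CPM on a linear axis from 0, with the mean (line) and SD (bar) of the 4 vehicle and the 4 LPS libraries and 1 symbol shape per replicate number. Trem2, Apoe, Lpl, Gpnmb and Cd9 have all LPS libraries below all vehicle libraries, and Spp1, Lgals3 and Fabp5 do not.

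Of the members, Trem2 and Gpnmb, lower after LPS, and Spp1, not called, had a motif match in the sequence around the start. These 3 sequences are shown, and were chosen after their values were seen. They are the RefSeq promoters of build GRCm38.p6, from 250 bases before to 50 after the annotated start, and such an entry was matched for 6 of the 8 members. Capitals mark a match to any of 4 motifs searched on both strands. The E-box CACGTG and the M-box TCATGTG are bound by MiT/TFE factors such as Mitf and Tfec. The others are a broad AP-1 pattern, TGANTCA, in which N is any base, and the PU.1 motif GAGGAAGT. The first lies at chr17:48346151-48346450, the second at chr6:49036268-49036567 and the third at chr5:104434861-104435160, all on the plus strand.
Trem2: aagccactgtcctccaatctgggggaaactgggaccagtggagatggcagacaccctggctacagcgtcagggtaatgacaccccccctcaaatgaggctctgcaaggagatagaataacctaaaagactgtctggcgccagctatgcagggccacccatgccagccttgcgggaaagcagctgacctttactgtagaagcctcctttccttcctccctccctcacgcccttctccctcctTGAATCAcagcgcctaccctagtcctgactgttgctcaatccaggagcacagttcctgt
Gpnmb: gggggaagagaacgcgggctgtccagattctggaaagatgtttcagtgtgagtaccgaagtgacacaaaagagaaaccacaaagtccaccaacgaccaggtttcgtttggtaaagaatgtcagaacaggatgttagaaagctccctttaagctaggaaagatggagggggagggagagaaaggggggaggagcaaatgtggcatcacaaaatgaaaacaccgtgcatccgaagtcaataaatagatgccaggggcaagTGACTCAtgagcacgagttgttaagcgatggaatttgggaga
Spp1: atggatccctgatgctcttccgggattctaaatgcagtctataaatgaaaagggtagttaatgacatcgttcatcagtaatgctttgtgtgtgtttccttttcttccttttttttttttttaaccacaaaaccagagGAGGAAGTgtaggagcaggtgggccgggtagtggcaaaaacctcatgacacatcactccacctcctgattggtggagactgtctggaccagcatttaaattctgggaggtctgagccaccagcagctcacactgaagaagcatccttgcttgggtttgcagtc
Trem2 has an AP-1 match, TGAATCA, that begins 9 bases before the start, and Gpnmb has one, TGACTCA, that begins 8 bases after it. Starts here are those of RefSeq, and the GENCODE start of Gpnmb, at 49036546, lies downstream of its match. The Spp1 window shown holds no AP-1 match and has a PU.1 match that begins 113 bases before the start. Spp1 has 2 such promoters, and the other, at chr5:104435942-104436241, holds none of the 4 motifs. The AP-1 letters stand in 7.81% of all 32851 promoters of this length, the PU.1 letters in 3.20%, the E-box in 7.15% and the M-box in 3.77%. The promoters of Apoe, Cd9 and Lgals3 hold none of the 4 motifs, although Apoe and Cd9 were also lower after LPS. Whether any motif had a part in the changes was not tested.

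Trem2 (ENSMUSG00000023992, chr17:48346401-48354147, plus strand, GRCm38) measured 505, 582, 542.5 and 565.5 CPM in vehicle replicates 1 to 4. After LPS it measured 22.1, 7.95, 10.2 and 13.5 CPM, so that its highest LPS library lay far under its lowest vehicle library. The mean went from 549 ± 33.4 to 13.4 ± 6.20 CPM (SD, n = 4 each), a log2 fold change of -5.36 with a standard error (SE) of 0.32 and an edgeR adjusted p of 8.73e-07. Only 110 of the 13847 tested genes had a lower fold change. The LPS values still rested on 146 to 369 reads per library, against 14428 to 17103 in vehicle, so the receptor transcript remained measurable.

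The adaptor Tyrobp fell far less. It measured 891, 881, 937 and 892 CPM in vehicle and 469, 424, 362.5 and 468.5 CPM after LPS, a log2 fold change of -1.06 (SE 0.12, edgeR adjusted p = 5.11e-05). The count of Trem2 per count of Tyrobp, which does not depend on the scaling between libraries, was 0.567 to 0.661 in vehicle and 0.0187 to 0.0471 after LPS. On the log2 scale the ratio went from -0.72 ± 0.11 to -5.10 ± 0.54 (SD, n = 4), a difference of -4.39 with a two-sided exact permutation p of 0.0286, the smallest that the 70 divisions of the 8 libraries allow. The ratio was lower in 4 of 4 pairs of libraries with the same number. Exact sign flips over these pairs cannot go below 0.125, the value they gave.

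Behind the receptor, the list of 15 genes of Trem2 signalling and shedding held 5 called higher, 7 called lower and 3 not called. Syk, the kinase that Tyrobp recruits, had the highest fold change of the list, from 238 ± 76.3 to 1255 ± 112 CPM (log2 fold change 2.40, edgeR adjusted p = 1.28e-05). Tyrobp had the lowest. The proteases that cut Trem2 from the cell surface both fell, Adam10 by 1.00 and Adam17 by 0.58 on the log2 scale (edgeR adjusted p = 6.61e-05 and 0.00128). Under library totals the list had 3 higher and 11 lower, with Syk among the 3.

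The related receptors of the Trem locus differed in direction. Of 7 paralogs listed, 5 were matched to the table and 4 passed the filter, all called higher, but 3 of these, Trem1, Trem3 and Treml4, had few vehicle reads and passed through their LPS libraries, and with at least 10 counts in every library 1 was left. Treml1 did not pass the filter: it had 27, 23, 9 and 24 reads in vehicle and 0 in every LPS library, and it was called lower by DESeq2 and without a filter. Trem1, which amplifies inflammatory signals of myeloid cells and shares the adaptor Tyrobp, measured 0.455, 0.311, 0.444 and 0.142 CPM in vehicle and 203, 121, 228 and 116 CPM after LPS (log2 fold change 8.92, SE 0.38, edgeR adjusted p = 1.83e-07). Its 4 to 14 reads per vehicle library leave that fold change imprecise. Treml4 had the smallest change, from 0.479 ± 0.496 to 2.09 ± 1.44 CPM with overlapping libraries (log2 fold change 2.11, edgeR adjusted p = 0.0289), and under library totals it was not called (adjusted p = 0.0963). The Treml4 call was also lost without vehicle replicate 2, 3 or 4 or LPS replicate 1 or 3 (edgeR adjusted p = 0.0541 to 0.0849), and without 1 library its log2 fold change ranged from 1.601 to 3.09. No 50-base stretch of Trem2 transcripts stands in those of Trem1, so no identical read could be exchanged between them.

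**Figure D2:**
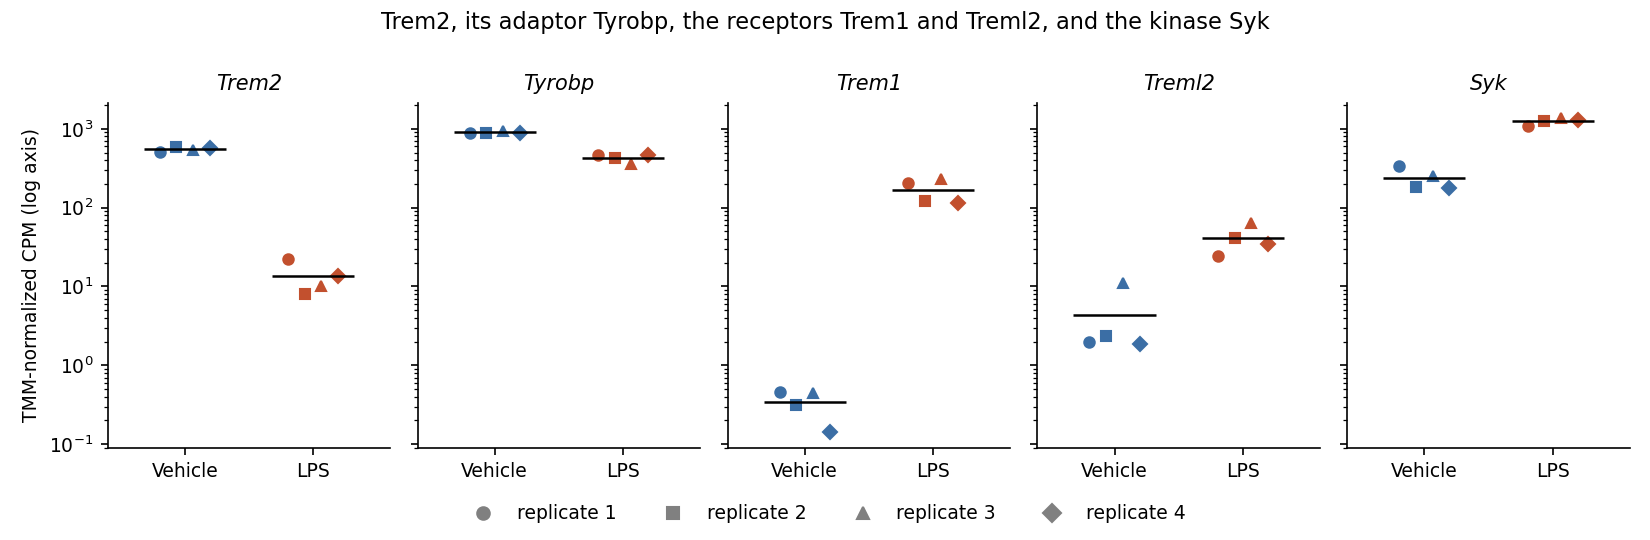
Trem2, its adaptor Tyrobp, the receptors Trem1 and Treml2, and the kinase Syk in TMM-normalized CPM on a log axis shared by all panels, with 4 vehicle and 4 LPS libraries (points) and their mean (line). Trem2 drops from 505 CPM or more to 22.1 CPM or less, Tyrobp stays between 362 and 469 CPM after LPS, and Trem1, Treml2 and Syk lie higher after LPS.

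Apoe (ENSMUSG00000002985, chr7:19696109-19699188, minus strand), the main apolipoprotein of the brain, was with Spp1 the most abundant of the 8 transcripts. It measured 11252, 13773, 15422 and 13348 CPM in vehicle and 4869.6, 6611, 1544 and 6740.5 CPM after LPS. All LPS libraries were below all vehicle libraries, and LPS replicate 3 stood well under the other LPS libraries. The mean went from 13449 ± 1716.5 to 4941 ± 2420.3 CPM (SD, n = 4), a log2 fold change of -1.45 (SE 0.40, edgeR adjusted p = 0.00957). By replicate number the log2 difference was -1.21, -1.06, -3.32 and -0.99, and without LPS replicate 3 the fold change was -1.14 with an edgeR adjusted p of 0.000846.

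Abca1, a cholesterol exporter that loads lipid onto Apoe and is, like Apoe, a known target of the LXR receptors, rose from 799 ± 110 to 1474 ± 121.5 CPM (log2 fold change 0.88, edgeR adjusted p = 4.19e-04), although under library totals its change of 0.21 did not pass (adjusted p = 0.119). The count of Apoe per count of Abca1 was 12.4 to 19.8 in vehicle and 3.45, 4.45, 0.942 and 4.96 in LPS replicates 1 to 4. The log2 ratio went from 4.07 ± 0.30 to 1.54 ± 1.11 (SD, n = 4), a difference of -2.53 with a two-sided exact permutation p of 0.0286, again the smallest possible. It was lower in 4 of 4 pairs, where exact sign flips gave 0.125. Nr1h3, which encodes LXR-alpha, measured 6.50 ± 1.35 CPM in vehicle and 10.8 ± 5.08 CPM after LPS and did not pass the test (edgeR adjusted p = 0.0762), although it did with DESeq2 (0.78, adjusted p = 0.0482) and without LPS replicate 1 (0.90, 0.0403) or 3 (0.95, 0.0184).

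Among 18 genes of Apoe and lipoprotein handling, 16 passed the filter, of which 2 were called higher, 5 lower and 9 neither. The highest fold change was that of Plin2, a coat protein of lipid droplets, from 863 ± 118 to 1762 ± 310 CPM (log2 fold change 1.03, edgeR adjusted p = 5.55e-04, and 0.34 with an adjusted p of 0.0775 under library totals). Lipa, the lysosomal lipase that frees cholesterol and fatty acids, had the lowest, from 1430 ± 169 to 253 ± 88.4 CPM (log2 fold change -2.50, edgeR adjusted p = 1.39e-05). Under library totals none of the list was called higher and 10 were called lower.

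**Figure D3:**
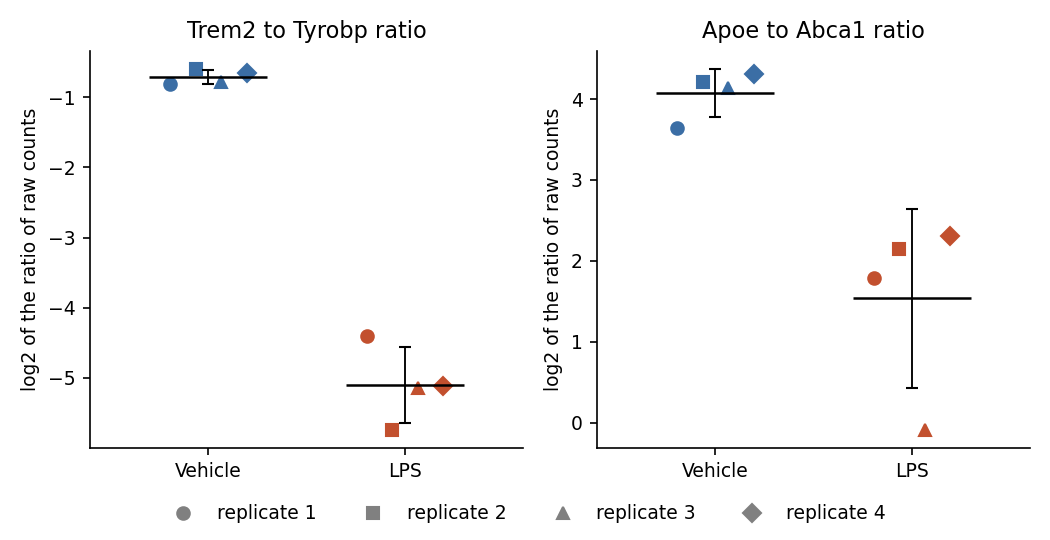
Ratio of raw counts within each library, on a log2 scale, of Trem2 to Tyrobp (left) and Apoe to Abca1 (right), with 4 vehicle and 4 LPS libraries (points), their mean (line) and SD (bar). All LPS libraries lie below all vehicle libraries for both ratios, and LPS replicate 3 has the lowest Apoe to Abca1 ratio, at -0.09.

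Lpl (ENSMUSG00000015568, chr8:68880491-68907448, plus strand), the lipase that releases fatty acids from lipoproteins, had the lowest fold change of the members. It measured 3405, 5467, 3459 and 5406 CPM in vehicle and 115, 64.8, 107 and 66.4 CPM after LPS. The drop was many times the spread within either group: the mean went from 4434 ± 1158 to 88.25 ± 26.4 CPM (SD, n = 4), a log2 fold change of -5.65 (SE 0.31, edgeR adjusted p = 6.49e-07). Replicates 1 and 3 were the lower vehicle libraries and the higher LPS libraries, so their log2 differences, -4.88 and -5.02, were smaller than those of replicates 2 and 4, -6.40 and -6.35.

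The genes that mature or inhibit the lipase had 8 of 12 past the filter, with 3 called higher, 3 lower and 2 neither. Furin, a protease that cleaves Lpl and its inhibitors, had the highest fold change, from 143 ± 29.9 to 266 ± 57.9 CPM (log2 fold change 0.89, edgeR adjusted p = 0.00235), which library totals reduced to 0.23 with an adjusted p of 0.323. Angptl4, an inhibitor of the lipase, measured 4.48, 6.19, 2.09 and 5.01 CPM in vehicle and 0, 0, 0.0933 and 0.27 CPM after LPS (log2 fold change -5.50, edgeR adjusted p = 1.02e-04). Angptl4 had 0, 0, 2 and 5 reads after LPS and passed the filter through its vehicle libraries, which leaves its fold change imprecise. With at least 10 counts in every library none of the list was called lower. Gpihbp1, Apoc3 and Apoa5 had no reads in any library. Under library totals none of the list was called higher and 4 were called lower.

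Fabp5 (ENSMUSG00000027533, chr3:10012548-10016607, plus strand), a cytosolic fatty acid binding protein, was low in both groups and did not pass the test. It measured 79.6, 36.0, 38.4 and 36.1 CPM in vehicle and 36.15, 35.3, 33.25 and 43.8 CPM after LPS. Vehicle replicate 1 stood alone, and the 7 other libraries lay between 33.25 and 43.8 CPM. The fold change was -0.36 on the log2 scale (SE 0.26, edgeR adjusted p = 0.243), and without vehicle replicate 1 it was 0.05 (adjusted p = 0.779). Under library totals it was -1.02 with an adjusted p of 0.00627. The summed level of 10 fibroblast and mural marker genes was also highest in vehicle replicate 1, at 1135 CPM against 202 to 330 CPM in the other vehicle libraries, nearly all of it Fn1 (fibronectin), and its part in the Fabp5 value was not tested.

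Of 7 further fatty acid binding proteins, 3 passed the filter, with 2 called higher and 1 not called, and the other 4 had no reads in any library. Fabp7, the brain-type member and an astrocyte marker, measured 12.3 ± 7.41 CPM in vehicle and 31.6 ± 5.85 CPM after LPS (log2 fold change 1.36, edgeR adjusted p = 0.0187). Fabp3 measured 2.66 ± 0.0757 and 4.97 ± 1.35 CPM (log2 fold change 0.90, edgeR adjusted p = 0.0057). Neither passed under library totals (adjusted p = 0.195 and 0.408), where 1 of the 3 was called lower.

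Spp1 (ENSMUSG00000029304, chr5:104435118-104441050, plus strand), which encodes the secreted phosphoprotein osteopontin, kept its place as an abundant transcript. It measured 12385, 10023, 9337 and 8587 CPM in vehicle and 11778.5, 15781, 20605 and 11152 CPM after LPS. The groups overlapped through vehicle replicate 1, which was above LPS replicates 1 and 4. The mean was 10083 ± 1643 and 14829 ± 4362 CPM (SD, n = 4), a log2 fold change of 0.56 (SE 0.24) that missed the threshold in edgeR (adjusted p = 0.0646). The call turned on the settings: DESeq2 called Spp1 higher (0.61, adjusted p = 0.0130), with DESeq2 size factors in edgeR the change was 0.61 (adjusted p = 0.0463), without vehicle replicate 1 it was 0.70 (adjusted p = 0.0333), without LPS replicate 1 or 4 it was 0.66 or 0.68 (adjusted p = 0.0466 and 0.0437), without LPS replicate 3 it was 0.36 (adjusted p = 0.135), and under library totals it was -0.14 (adjusted p = 0.518). As a share of all counts Spp1 held 1.13% to 1.55% in vehicle and 0.913% to 1.44% after LPS.

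Gpnmb (ENSMUSG00000029816, chr6:49036546-49070929, plus strand), a glycoprotein of lysosomes and the cell surface of lipid-laden macrophages, fell. It measured 4735.5, 3527, 3978 and 3684 CPM in vehicle and 895, 937, 1724 and 1148.5 CPM after LPS, with LPS replicate 3 the highest of its group. The mean went from 3981 ± 537 to 1176 ± 382 CPM (SD, n = 4), a log2 fold change of -1.76 (SE 0.23, edgeR adjusted p = 1.19e-04). LPS replicate 3 was thus the lowest LPS library for Apoe and the highest for Gpnmb, Spp1, Cd9 and Lgals3.

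The 8 receptors and partners of Spp1 and Gpnmb had 3 called higher, 4 lower and 1 not called. Sdc4, a heparan sulfate proteoglycan that Gpnmb binds, had the highest fold change, from 132 ± 26.1 to 850 ± 90.2 CPM (log2 fold change 2.68, edgeR adjusted p = 1.28e-06). Itgb3, a chain of an integrin that binds osteopontin, had the lowest, from 8.73 ± 3.06 to 0.715 ± 0.308 CPM (log2 fold change -3.61, edgeR adjusted p = 2.34e-05). Itgb3 had 6 to 18 reads per LPS library. Cd44, another receptor of osteopontin, measured 310 ± 46.3 and 290 ± 10.9 CPM and did not pass (log2 fold change -0.09, edgeR adjusted p = 0.518), although under library totals it was called lower at -0.77 (adjusted p = 3.35e-04).

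Cd9 (ENSMUSG00000030342, chr6:125460266-125494791, minus strand), a tetraspanin that organises membrane proteins and is abundant on small vesicles, fell with little spread. It measured 329.9, 295, 227 and 322 CPM in vehicle and 66.4, 53.75, 78.4 and 44.5 CPM after LPS. The libraries did not overlap, the mean going from 294 ± 46.6 to 60.8 ± 14.8 CPM (SD, n = 4), a log2 fold change of -2.27 (SE 0.20, edgeR adjusted p = 8.65e-06). The 11 other tetraspanins measured did not move as a group, with 6 called higher and 5 lower. Tspan3 had the highest fold change, from 66.6 ± 3.99 to 359 ± 62.9 CPM (log2 fold change 2.43, edgeR adjusted p = 9.55e-07), and Tspan33 the lowest, from 34.1 ± 15.1 to 0.828 ± 0.269 CPM (log2 fold change -5.36, edgeR adjusted p = 3.84e-06). The LPS level of Tspan33 was low, and without 1 library its log2 fold change ranged from -5.57 to -5.11. Under library totals 3 of the 11 other tetraspanins were higher and 5 lower.

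Lgals3 (ENSMUSG00000050335, chr14:47367751-47386160, plus strand), a galectin that binds damaged lysosomes and is also secreted, did not pass the test. It measured 999, 830.5, 1034.5 and 759 CPM in vehicle and 547, 692, 1096 and 668 CPM after LPS. LPS replicate 3 was the highest of all 8 libraries, while the other LPS libraries lay below every vehicle library. The log2 fold change was -0.27 (SE 0.22, edgeR adjusted p = 0.295), and it was -0.50 with an adjusted p of 0.0177 without LPS replicate 3 and -0.97 with an adjusted p of 6.01e-04 under library totals. Among other galectins, 9 of 10 listed were matched, 5 passed the filter, 3 were called higher, 1 lower and 1 neither. Lgals9, an interferon-responsive galectin, had the highest fold change, from 209 ± 62.1 to 841 ± 172 CPM (log2 fold change 2.01, edgeR adjusted p = 4.85e-05), and Lgalsl the lowest, from 4.87 ± 0.997 to 1.65 ± 0.189 CPM (log2 fold change -1.56, edgeR adjusted p = 1.76e-04).

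**Figure D4:**
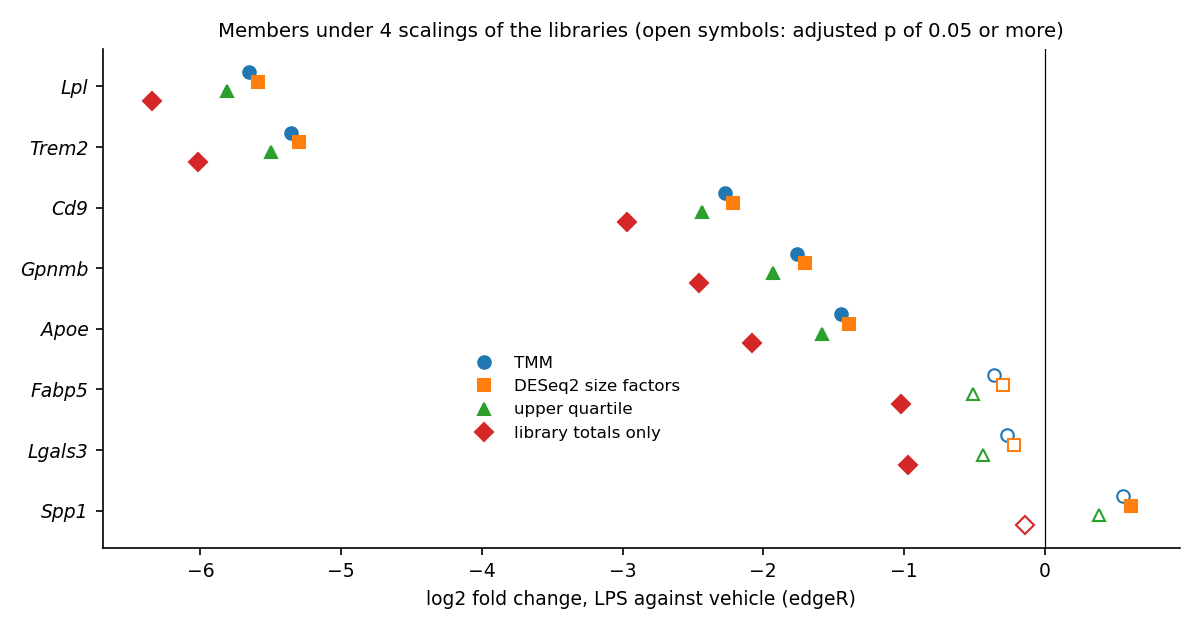
log2 fold change of the 8 genes, LPS against vehicle, in edgeR under 4 scalings of the libraries (symbols), with open symbols for an adjusted p of 0.05 or more. Lpl, Trem2, Cd9, Gpnmb and Apoe are lower under every scaling, Fabp5 and Lgals3 are called under library totals only, and Spp1 lies at 0.56 under TMM and -0.14 under library totals.

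Corrected for exonic length (TPM, the share per 1000000 after division by exonic length), the order of the members in vehicle was Apoe at 27340.4 ± 3693, Spp1 at 26494.5 ± 3669, Gpnmb at 2645 ± 256.5, Lgals3 at 2104 ± 169.5, Lpl at 1864 ± 602, Cd9 at 627 ± 122, Trem2 at 484 ± 58.1 and Fabp5 at 57.3 ± 23.5 TPM (SD, n = 4). That length joins the exons of all annotated transcripts of a gene, 4946 bases for Trem2 and 2044 for Cd9. It can exceed the transcript that is expressed, to a degree that differs by gene and was not tested, so ranks between genes are approximate. Apoe and Spp1, Lgals3 and Lpl, and Cd9 and Trem2 overlapped across libraries as neighbours in that order. After LPS the order was Spp1 at 22656.5 ± 5072.5, Apoe at 6049 ± 3122, Lgals3 at 1015 ± 238, Gpnmb at 453.5 ± 110, Cd9 at 75.1 ± 14.1, Fabp5 at 26.7 ± 4.66, Lpl at 21.4 ± 6.02 and Trem2 at 6.995 ± 3.46 TPM. Of these neighbours only Fabp5 and Lpl overlapped. Lpl thus went from the fifth to the seventh level and Trem2 from the seventh to the last. Together the 8 genes took 4.11% to 4.42% of all vehicle counts and 1.53% to 1.97% of all LPS counts. These shares and the TPM values are taken within each library's own sum, without TMM. Their differences between groups are therefore not those of the CPM given above. In TMM-normalized CPM the 8 genes summed to 32708 to 34534 in vehicle and 18330 to 25196 after LPS.

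Other genes of the disease-associated state divided evenly. Of 28 listed, 27 passed the filter. Of these 12 were called higher, 13 lower and 2 neither, beside 30.3% higher and 33.8% lower of all tested genes. The median log2 fold change of the list was -0.22. Ch25h, which makes 25-hydroxycholesterol, had the highest fold change, from 20.5 ± 7.32 to 1139 ± 418 CPM (log2 fold change 5.80, edgeR adjusted p = 1.72e-06), and the growth factor Igf1 the lowest, from 1679 ± 93.9 to 43.6 ± 12.3 CPM (log2 fold change -5.27, edgeR adjusted p = 2.81e-07). The cystatin Cst7 rose from 19.0 ± 8.92 to 83.2 ± 24.9 CPM (log2 fold change 2.13, edgeR adjusted p = 4.55e-04). The beta-glucan receptor Clec7a fell by 2.71 and the lysosomal tetraspanin Cd63 by 0.97 on the log2 scale (edgeR adjusted p = 3.92e-04 and 4.72e-05). The integrin Itgax also fell, by 1.46 (edgeR adjusted p = 0.0311), but its libraries overlapped, and without vehicle replicate 1, the highest at 48.4 CPM, the change was -0.89 with an adjusted p of 0.129. The Itgax call was also lost without vehicle replicate 3 or LPS replicate 2, 3 or 4 (edgeR adjusted p = 0.0512 to 0.0826). The receptor tyrosine kinase Axl measured 230.4 ± 133 and 198 ± 64.5 CPM and did not pass (edgeR adjusted p = 0.622), although it was called lower, at -0.91, under library totals (adjusted p = 0.0362). Library totals gave 8 of the list higher and 14 lower.

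The homeostatic genes, which the disease-associated state also lowers in tissue, fell: of 14 listed, 13 passed the filter, with 0 called higher, 11 lower and 2, Tmem119 and Selplg, not called. With the replicate number as a block 12 were lower, Tmem119 among them (log2 fold change -1.33, edgeR adjusted p = 9.11e-04, against -1.21 and 0.0589 without the block). Tmem119 was also called lower by DESeq2 (adjusted p = 0.0400), with upper quartile scaling, library totals or no filter, and without LPS replicate 1 (-1.82, adjusted p = 0.00659), and Selplg under library totals (-0.95, adjusted p = 0.00469). None was higher at an unadjusted p under 0.05 or with DESeq2, and their median log2 fold change was -2.23. The fractalkine receptor Cx3cr1 had the lowest, from 989 ± 211 to 6.43 ± 0.746 CPM (log2 fold change -7.26, edgeR adjusted p = 3.75e-08), and Cst3 the highest of those called, from 868 ± 65.8 to 439 ± 161 CPM (log2 fold change -0.98, edgeR adjusted p = 0.00669).

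**Figure D5:**
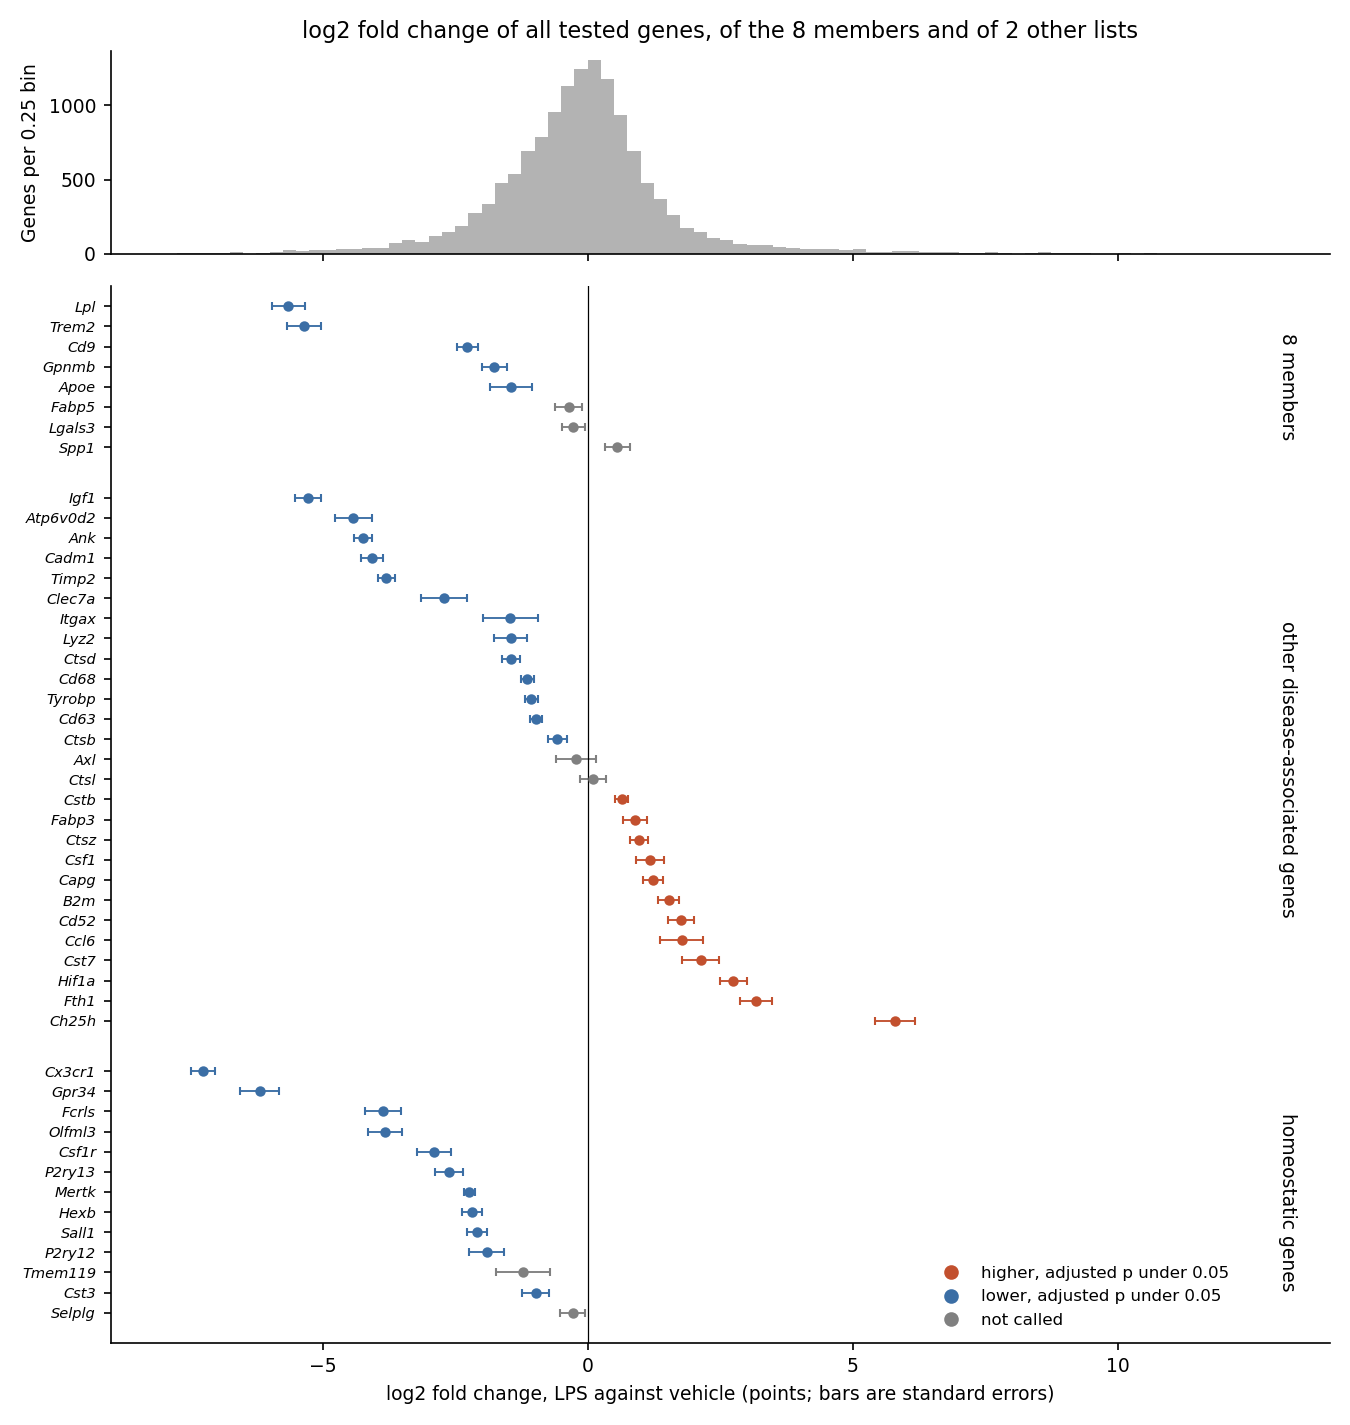
log2 fold change of LPS against vehicle for all 13847 tested genes (histogram, top), and for the 8 members, 27 other genes of the disease-associated state and 13 homeostatic genes (points with standard errors, bottom), coloured by call at an adjusted p of 0.05. The other disease-associated genes reach from Igf1 at -5.27 to Ch25h at 5.80, while the homeostatic genes lie below 0.

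Beside 30.3% higher and 33.8% lower of all tested genes, the 12 transcription factors linked to the state had 5 called higher, 5 lower and 2 neither. Cebpb, a factor of inflammatory myeloid cells, had the highest fold change, from 29.6 ± 12.8 to 138 ± 47.0 CPM (log2 fold change 2.22, edgeR adjusted p = 3.29e-04). Pparg, a lipid-activated receptor, had the lowest, from 23.3 ± 10.1 to 0.479 ± 0.207 CPM (log2 fold change -5.56, edgeR adjusted p = 5.66e-06). Pparg had 3 to 14 reads per LPS library, which leaves its fold change imprecise. Mitf, which drives Gpnmb in pigment cells, measured 98.4 ± 7.32 and 86.0 ± 24.7 CPM and did not pass (log2 fold change -0.19, edgeR adjusted p = 0.368), although without LPS replicate 3 it did (-0.40, adjusted p = 0.0162). Its relative Tfec measured 15.1 ± 7.08 and 7.87 ± 4.18 CPM and did not pass either (log2 fold change -0.94, edgeR adjusted p = 0.0745), although with the replicate number as a block it did (-0.96, adjusted p = 0.00129). Tfec was also called lower without LPS replicate 3 (-1.34, edgeR adjusted p = 0.0177) or vehicle replicate 2 (-1.12, 0.0456), with upper quartile scaling (-1.11, 0.0371) and with no filter (-0.97, 0.0455). Under library totals both were called lower, Mitf at -0.89 and Tfec at -1.64, and the list then had 3 higher and 7 lower.

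For each member the 2 genes with the most similar pattern over the 8 libraries were looked up among the 8010 genes whose mean log2 CPM was 3 or more. These correlations share libraries and group differences and are given as descriptions, each with the correlation of the deviations from the group means of the same gene. Trem2 was closest to Dpp7 (Pearson r = 0.999, deviations 0.970) and Rps6ka5 (0.998, 0.955), Lpl to Abcd2 (0.998, 0.887) and Nap1l1 (0.997, 0.811), and Apoe to Pcnt (0.994, 0.985) and Ptp4a3 (0.990, 0.974). Gpnmb was closest to Setd7 (0.994, 0.937) and to the protease Adam10 (0.993, 0.938), Lgals3 to Mapkapk3 (0.982, 0.983) and Scpep1 (0.973, 0.972), and Spp1 to 0610030E20Rik (0.979, 0.964) and Akap7 (0.961, 0.927). Cd9 was closest to Dhdh (0.999, 0.982) and its own processed pseudogene Cd9-ps (0.997, 0.942), and Fabp5 to the processed pseudogene Gm6166 (0.949, 0.946) and Fabp4 (0.892, 0.893). Fabp5, Gm6166 and Fabp4 were all highest in vehicle replicate 1, Fabp4 at 48.9 CPM there and 10.5 to 16.7 CPM elsewhere. How far these correlations rest on that library was not tested.

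The last pairs involve shared sequence, which can divide reads between a gene and its copy. Gm6166 on chromosome 9 holds 5.10% of the 50-base windows of Fabp5 transcripts and counted 194 to 483 reads in vehicle and 104 to 162 after LPS. Cd9-ps holds 0.70% of those of Cd9 and counted 624 to 810 reads in vehicle and 81 to 147 after LPS. In all, 14.4% of the windows of Cd9 stand in other genes too. Spp1 shares 18.8% of its exonic bases with the unvalidated transcript Gm42793 on the same strand, which held 113 to 362 reads beside 353823 for Spp1 in vehicle replicate 1. Cd9 overlaps Gm26728 on the opposite strand over 10.7% of its exonic bases, where 0 to 4 reads were counted, and whether the counting used strand is not stated. Apoe, Trem2 and Lgals3 shared no such window with another gene.

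Markers bore on what the cultures held. All 8 genes of an LPS response check (Nos2, Il6, Ptgs2, Il1a, Ccl5, Il1b, Cxcl10 and Tnf) were called higher. The summed level of 12 microglia markers was 11354 to 14862 CPM in vehicle and 2228.5 to 2675 CPM after LPS, with 9 of 11 tested called lower and 0 higher (0 also at an unadjusted p under 0.05 and with DESeq2), so the markers of the labelled cell type themselves moved with the treatment. Astrocyte markers summed to 23.4 to 76.1 and 70.8 to 155 CPM (2 of 11 called higher, 3 lower, Gjb6 at 0), and oligodendrocyte and precursor markers to 227 to 294 and 191 to 264 CPM (1 of 10 higher, 4 lower, none at 0 in every library). Fibroblast and mural markers summed to 202 to 1135 and 15.2 to 79.6 CPM (2 of 5 higher, 1 lower), endothelial markers to 37.2 to 83.4 and 196 to 272 CPM (3 of 4 higher, 0 lower, Cldn5 and Emcn at 0), and border macrophage and monocyte markers to 577 to 1058 and 47.3 to 80.6 CPM (1 of 5 higher, 3 lower). Their part in the changes of the 8 genes was not tested. Totals ranged from 20071921 to 30604447 counts per library.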

How the data were processed

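RNA of primary murine microglia was measured in 8 libraries, 4 per group by their labels. The authors deposited raw counts, whole numbers of uniquely aligned reads per Ensembl gene aligned with GSNAP to GRCm38 and counted by HTSeqGenie, and not normalized. The annotation release is not given in the sources used here, and the labels and the paper name different kits and sequencers. All 8 columns were mapped to samples and 0 were left unused. Symbols, positions and exonic lengths came from GENCODE vM21, which named 52489 of the 52636 identifiers, and the 147 without a symbol held 0.00512% of the counts.

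Counts were tested with edgeR 4.0.16 in R 4.3.3 (TMM, filterByExpr with a minimum count of 10 and total of 15, quasi-likelihood, two-sided, no block), with Benjamini-Hochberg adjustment over all tested genes and a threshold of 0.05. The standard error is the absolute log2 fold change divided by the square root of F. A level is the CPM after TMM, and a fold change is the fitted one. DESeq2 1.42.0, other scalings and filters, stricter thresholds, the replicate block and the removal of each library were alternatives. Ratios were tested by exact permutation in Python 3.11.15 with scipy 1.17.1 and numpy 2.4.6, tables were made with pandas 2.3.3, and figures with matplotlib 3.10.9. Library totals of 20071921 to 30604447 counts set the counting error, and the SD between libraries covers the rest. No 2 libraries held identical counts. The chi-square per degree of freedom between LPS replicates 2 and 4 was 6.45, against 54.9 to 139.8 for the other LPS pairs. Between vehicle replicates 2 and 4 it was 10.1, against 32.8 to 60.8 for the other vehicle pairs. Replicates 2 and 4 were thus closer to each other than to the rest in both groups.

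No label says that equal replicate numbers share a culture. Deviations from the group means were correlated between vehicle and LPS libraries of equal number, with r = 0.373, 0.196, 0.171 and 0.108 over 8010 genes. Pairs of unequal number gave r from -0.21 to 0.146. Vehicle replicate 2 with LPS replicate 4 (0.146) and vehicle replicate 4 with LPS replicate 2 (0.137) exceeded the pair of number 4 (0.108). Equal numbers thus did not stand out for replicate 4. The numbers were treated as pairs in the block.

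The members and gene lists were chosen with earlier results of these data known. Named were all members, the called genes with the highest and the lowest fold change of each list, Tyrobp, Adam17, Adam10, Nr1h3, Abca1, Mitf, Tfec, Axl, Itgax, Clec7a, Cst7, Cd63, Cd44, Angptl4, Lipa and Plin2 whatever their values, and the 2 genes most like each member. The motifs, the 3 promoters printed, and the remarks on Treml1, Treml2, Trem3, Tmem119, Selplg, Fn1, pseudogenes and overlapping transcripts were chosen after their values were seen.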

Additional observations from a re-analysis of the deposited data

Results flagged for a closer look

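Fabp5 in vehicle replicate 1, at 79.6 CPM, stood apart from the other vehicle libraries, which measured 36.0 to 38.4 CPM. The gap to the nearest of them was 0.946 of the range of the group, above Dixon's critical value for 4 samples. The 8 genes gave 16 groups of 4 libraries to look at, and chance flags about 1 group in 20. Without this library the log2 fold change of Fabp5 was 0.05. In the same library the pseudogene Gm6166, which shares sequence with Fabp5, counted 483 reads against 194 to 280 in the other vehicle libraries.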

How the results depend on the processing

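Lpl, Trem2, Cd9, Gpnmb and Apoe were called lower under every alternative run, and the replicate block left 5 members lower and 0 higher. The block changed the call of no member and, of the other named genes, those of Tfec, Tmem119 and Mapkapk3 (-0.46, edgeR adjusted p = 0.0358, against -0.40 and 0.159), which were then called lower. DESeq2 and DESeq2 size factors each gave 1 member higher, Spp1, and without 1 library the members called were 0 to 1 higher. Spp1 reversed to -0.14 under library totals only. Without 1 library, Fabp5 ranged from -0.44 to 0.0456, Axl from -0.47 to 0.29, Cd44 from -0.11 to 0.0488 and Selplg from -0.37 to 0.0725. None of the 4 passed in any of these fits, and the cause was not tested.

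Library totals gave 1988 of all tested genes higher and 8457 lower, and a minimum log2 fold change of 1 gave 2224 and 2998. On the lists of Trem2 signalling and shedding, these settings gave 3 higher and 11 lower, and 3 and 2. Apoe and lipoprotein handling had 0 higher and 10 lower under library totals, 1 higher with the minimum fold change, and 2 to 4 higher without 1 library (4 without LPS replicate 1). Genes of Lpl maturation and inhibition had 0 higher under library totals or the minimum fold change, and 0 lower with at least 10 counts in every library, which removes genes near 0. Transcription factors had 3 higher under either, tetraspanins 3 higher under either and 3 lower with the minimum fold change, and galectins 2 lower under library totals. Trem paralogs had 3 to 4 higher without 1 library, 1 higher with at least 10 counts in every library, 1 lower with DESeq2 or without a filter (Treml1, not tested otherwise), and 0 to 1 lower without 1 library. Fatty acid binding proteins had 0 higher and 1 lower under library totals, 1 lower with upper quartile scaling or without a filter, and 1 higher at an adjusted p under 0.01 or with the minimum fold change.

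In the replicate block of the ratios, the differences of -4.39 (Trem2 to Tyrobp) and -2.53 (Apoe to Abca1) had an exact sign flip p of 0.125, the smallest possible. Without 1 library they ranged from -4.62 to -4.18 and from -2.79 to -1.99, where 35 divisions allow no exact permutation p under 0.0571, so these p-values say nothing of stability. The changes of Lgals3 and Fabp5 lay within the spread of those 2 genes between libraries, although changes of like size in less variable genes were called.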
